A study of Mus musculus with 9 samples.

Results

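Microglia identity genes are genes that microglia, the resident macrophages of the brain, express in their resting state or share with other macrophages. The set was given as a list of 37 gene symbols, and all 37 were found among the 38621 genes measured. Brain RNA was sequenced from 9 male C57BL/6 mice in 3 groups of 3. In the ICH group, intracerebral hemorrhage was modeled with 30 μl of the mouse's own blood injected into the brain. The feb group received the same blood injection after 5 daily doses of 50 mg/kg febuxostat, a xanthine oxidase inhibitor, given by gavage. The sham mice received no blood and no febuxostat; the methods describe a saline injection, while the sample labels call these mice untreated. The age of the mice, the dissected region and the time between injection and RNA extraction are not given for these samples in the sources used here. No source states whether same-numbered mice were handled together, so p-values measure only the spread between these samples. In RNA of brain tissue, fewer microglia and less RNA per microglial cell cannot be told apart.

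Microglia are long-lived macrophages that settle in the brain during embryonic life and renew themselves locally. Their survival depends on Csf1r, the receptor for the growth factors Csf1 and Il34, and their identity is maintained by TGF-beta signaling and by transcription factors such as PU.1 (the product of Spi1), Irf8 and Sall1. Resting microglia survey the tissue with receptors for nucleotides and for the neuronal ligand Cx3cl1, and after injury they take up debris, secrete the C1q chains that start the classical complement pathway, and reduce several of their surveillance receptors. After a hemorrhage, microglia and macrophages that enter from the blood clear red blood cells and heme.

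Of the 37 genes, 29 had a promoter window in the RefSeq annotation of GRCm38.p6, running from 250 bases before to 50 bases after a transcription start. The 8 without a window were Tmem119, Tyrobp, Gpr34, Csf1r, C1qa, Selplg, Unc93b1 and Spi1. The windows were searched on both strands for GAGGAA, the purine-rich PU box that PU.1 recognizes and that other ETS factors can also bind. It was present in 19 of the 29 genes (65.5%) and in 31.3% of the 27025 genes of the annotation with such a window. By window, it was in 22 of 37 (59.5%) of the identity genes and in 28.3% of all 32851 windows. A match of letters is a description of the sequence, not evidence of binding. The 260 bases ending 10 bases after the start are shown for Siglech and Aif1, which had the lowest p-values between the feb and ICH groups, and for the neighboring genes C1qb and C1qc, which did not pass that test. The sequences are read on the strand of the gene, and capitals mark the PU box. In Siglech, Aif1 and C1qc it lies on the opposite strand and so reads TTCCTC.
Siglech, chr7:55767934-55768193, plus strand: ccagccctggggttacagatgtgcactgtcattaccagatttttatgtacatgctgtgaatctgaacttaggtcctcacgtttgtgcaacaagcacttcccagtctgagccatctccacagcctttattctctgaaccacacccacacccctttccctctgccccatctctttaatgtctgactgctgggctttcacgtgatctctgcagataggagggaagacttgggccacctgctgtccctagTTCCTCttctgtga
Aif1, chr17:35176043-35176302, minus strand: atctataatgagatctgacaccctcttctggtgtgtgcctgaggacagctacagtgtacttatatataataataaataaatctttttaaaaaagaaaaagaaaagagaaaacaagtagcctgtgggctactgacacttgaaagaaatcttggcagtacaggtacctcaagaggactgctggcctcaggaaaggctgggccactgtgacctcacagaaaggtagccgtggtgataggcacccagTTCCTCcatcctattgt
C1qb, chr4:136886191-136886450, minus strand: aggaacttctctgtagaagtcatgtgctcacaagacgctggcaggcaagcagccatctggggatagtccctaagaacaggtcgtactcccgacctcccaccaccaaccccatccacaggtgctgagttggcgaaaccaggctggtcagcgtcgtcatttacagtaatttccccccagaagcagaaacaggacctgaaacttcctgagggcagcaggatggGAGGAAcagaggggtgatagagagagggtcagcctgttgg
C1qc, chr4:136892905-136893164, minus strand: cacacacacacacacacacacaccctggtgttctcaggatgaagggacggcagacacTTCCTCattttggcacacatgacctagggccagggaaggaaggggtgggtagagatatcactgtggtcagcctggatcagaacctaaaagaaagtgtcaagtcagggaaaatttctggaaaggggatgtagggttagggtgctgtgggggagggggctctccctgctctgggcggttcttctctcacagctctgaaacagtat
The box began 4 bases before the start of Siglech and 7 before that of Aif1. In C1qb it began 30 bases before the start and in C1qc 193 bases before it. The PU box thus occurred both in genes that passed this unadjusted test between feb and ICH and in genes that did not. It was also absent from some that passed, since the windows of Cx3cr1, P2ry12 and Olfml3 held none. Gpr34, Tmem119, Selplg and Spi1 also passed but had no window to search.

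Several of the genes lie next to each other in GRCm38. C1qb, C1qc and C1qa follow one another on the minus strand of chromosome 4 between 136880129 and 136898803, and P2ry13 and P2ry12 share the minus strand of chromosome 3 between 59207892 and 59262871. Tmem119 and Selplg are neighbors on the minus strand of chromosome 5 between 113793729 and 113832644. The exons of Csf1r overlap those of Hmgxb3 on the opposite strand over 17.8% of their length, and those of Ltc4s overlap Gm26542 over 26.1%. The strand setting of the read counting is not given in the sources used here. The overlaps could therefore add reads of these partners to Csf1r and Ltc4s or take reads from them.

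Expression was deposited as RPKM, the reads of a gene scaled to the length of its exons and to all reads counted in the mouse. Between 23065757 and 29538009 reads were counted on genes in each mouse, at which 3 reads on 1 kb of exon give an RPKM of 0.102 to 0.130. All 37 genes reached an RPKM of 0.1 in 3 or more mice, the filter that 29025 genes passed in all, and their reads in a mouse ranged from 7 for Gpr84 to 2559 for Csf1r. Groups were compared with limma on log2(RPKM + 0.1), a scale on which differences of low genes come out smaller. A gene was called at an unadjusted p-value under 0.05, or as a DEG when its fold change was also over 2, and Benjamini-Hochberg adjustment was over all genes tested.

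ICH replicate 2 stood apart from the other mice. It had the highest RPKM of the 9 mice in 33 of the 37 genes, and in 28 of them its value was at least 1.2 times that of every other mouse. ICH replicate 3 was the lowest of its group in 35 genes and was below all 3 sham mice in 12. In 33 genes the ICH mice came in the order replicate 2, replicate 1, replicate 3. The same mouse, ICH replicate 2, was also apart in Gfap, the intermediate filament of reactive astrocytes, with an RPKM of 573 against 128 and 63.3 in ICH replicates 1 and 3 and 54.5 to 160 in the sham and feb mice. The counts, the medians of the 37 genes and the fold changes of single genes were therefore also computed without it. The heatmap of the 37 genes shows the ICH replicate 2 column apart from the others.

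**Figure D1:**
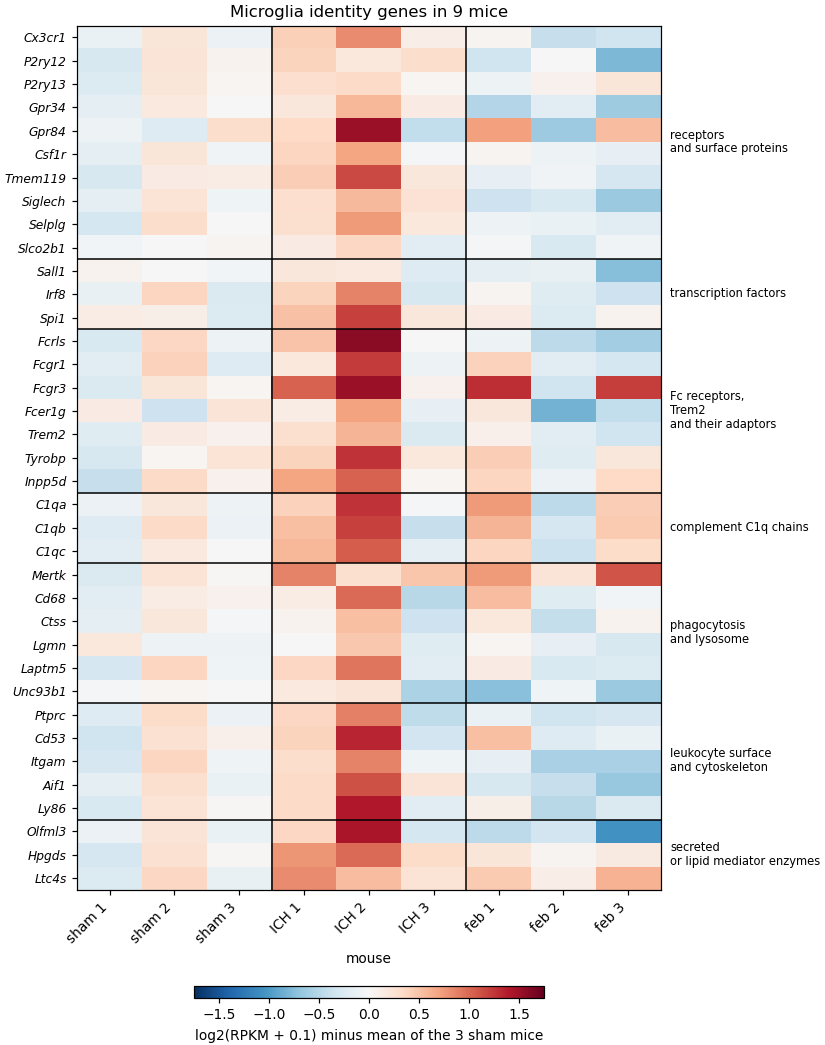
Level of each of the 37 genes (rows, grouped by role) in each of the 9 mice (columns), as log2(RPKM + 0.1) minus the mean of the 3 sham mice, with red for higher and blue for lower. ICH replicate 2 had the highest RPKM of the 9 mice in 33 of the 37 rows, and ICH replicate 3 the lowest of the ICH mice in 35.

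In the sham mice the most abundant of the genes per exon length encoded lysosomal proteases and complement. Ctss, cathepsin S, had a mean RPKM of 31.9 ± 4.15 (SD, n = 3), and Lgmn, legumain, 24.4 ± 2.70 (SD, n = 3). The next were C1qa at 15.5 ± 1.89, Csf1r at 12.4 ± 1.71 and C1qb at 11.0 ± 2.38 (SD, n = 3 each). Among C1qa, Csf1r and C1qb, the SD ranges of neighbors in this order overlapped. The fractalkine receptor Cx3cr1 was at 5.70 ± 0.775 and the ADP receptor P2ry12 at 3.76 ± 0.670 (SD, n = 3 each). The homeostatic markers Tmem119 and Siglech were at 2.42 ± 0.400 and 1.86 ± 0.297 (SD, n = 3 each). The lowest were the tetraspanin Cd53 at 0.505 ± 0.125, Ptprc (CD45) at 0.422 ± 0.107 and Gpr84, a fatty acid receptor, at 0.338 ± 0.0868 (SD, n = 3 each), again with overlapping SD ranges between neighbors. All 37 genes had reads in every mouse.

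Between ICH and sham mice, 36 of the 37 genes had a log2 fold change above 0, and 6 were called, all higher: Hpgds, Tmem119, Spi1, Ltc4s, Aif1 and Mertk. Among all genes tested, 61.1% were above 0 and 12.3% were called (7.88% as higher), against 16.2% of the 37 genes. The median log2 fold change of the 37 genes was 0.44, against 0.08 for all genes tested. No member was a DEG (2.53% of all genes were), and none passed an adjusted p of 0.05 in limma, where 7 of all genes did (0.0241%). The 3 ICH mice were all above the 3 sham mice in 5 genes, Tmem119, Siglech, Spi1, Mertk and Hpgds, where 13.2% of all genes had this pattern. The share of genes without overlap was thus near the background, while the share above 0 was higher with all mice. That share depended in part on ICH replicate 2. Without it, 28 of the 37 genes and 17927 of the 29025 genes tested were above 0. The mean log2 level of the 37 genes relative to sham was 0.38, 0.88 and -0.06 in ICH replicates 1, 2 and 3. As 33 of the 37 genes ranked the ICH mice in the same order, their signs are not separate observations.

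Hpgds makes prostaglandin D2 in hematopoietic cells and had the lowest p-value of the 6. Its RPKM was 1.09, 1.67 and 1.39 in sham mice and 2.39, 2.81 and 1.74 in ICH mice. The groups did not overlap, although the lowest ICH mouse was close to the highest sham mouse. The log2 fold change was 0.70 (SE 0.21, adjusted p = 0.346 in limma), and Hpgds was called under all 19 alternatives tried. Ltc4s, the synthase of the leukotriene LTC4, was at 1.196, 1.87 and 1.31 in sham mice and 2.61, 2.12 and 1.71 in ICH mice. Here ICH replicate 3 lay within the sham range, and the log2 fold change was 0.53 (SE 0.22, adjusted p = 0.397 in limma).

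Mertk, a receptor through which macrophages take up dying cells, was at 4.86, 6.82 and 5.85 in sham mice and 10.6, 7.06 and 8.13 in ICH mice. It was 1 of 4 members in which ICH replicate 1 was the highest of its group. Its log2 fold change was 0.54 (SE 0.24, adjusted p = 0.405 in limma). Spi1 was at 1.31, 1.28 and 0.990 in sham mice and 1.73, 2.85 and 1.37 in ICH mice, with a log2 fold change of 0.64 (SE 0.26, adjusted p = 0.390 in limma). Without ICH replicate 2 it was 0.36. Tmem119, a surface protein of resting microglia, was at 1.96, 2.66 and 2.64 in sham mice and 3.28, 5.47 and 2.77 in ICH mice. Its log2 fold change was 0.60 (SE 0.24, adjusted p = 0.390 in limma), and 0.32 without ICH replicate 2. Aif1, the calcium-binding protein known as Iba1, had a log2 fold change of 0.56 (SE 0.24, adjusted p = 0.402 in limma), and 0.28 without that mouse.

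The other 31 genes were not called in this comparison. The largest difference among them was in Fcgr3, a receptor for immunoglobulin G, at 3.32, 4.61 and 4.08 in sham mice and 8.23, 11.5 and 4.18 in ICH mice. ICH replicate 3 was within the sham range, and the log2 fold change of 0.87 had an SE of 0.48 (adjusted p = 0.460 in limma). It was 0.56 without ICH replicate 2. By role, the median log2 fold change was 0.58 in the 7 Fc receptors, Trem2 and adaptors, 0.53 in the 3 secreted or lipid mediator genes, 0.49 in the 3 C1q chains and 0.46 in the 5 leukocyte surface and cytoskeletal genes. It was 0.36 in the 10 receptors and surface proteins, 0.33 in the 3 transcription factors and 0.15 in the 6 phagocytosis and lysosome genes. The lysosomal proteases were close to the sham level, with 0.07 (SE 0.23) for Ctss and 0.08 (SE 0.17) for Lgmn, and at -0.15 and -0.11 without ICH replicate 2. Sall1, a transcription factor of microglia that other brain cells also express, was at 0.05 (SE 0.18), and Unc93b1, which carries Toll-like receptors to the endosome, was the only member below 0, at -0.05 (SE 0.24), but was at 0.20 without ICH replicate 3.

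The count of 6 depended on single mice and on the scaling. Without ICH replicate 2 it was 2 (Hpgds and Mertk), 28 genes were above 0 and the median was 0.17, while without ICH replicate 3 it was 17, 2 of them DEGs, with a median of 0.63. It was 3 without ICH replicate 1 and 3 without feb replicate 1, which enters only the estimate of the spread. It was 1, 10 and 2 without sham replicates 1, 2 and 3. The calls over all 29025 genes also moved, from 2288 higher and 1282 lower. They were 1465 and 1191, 1492 and 764, and 2456 and 1290 without ICH replicates 1, 2 and 3. Leaving out sham replicates 1, 2 and 3 gave 1336, 3451 and 1178 higher and 703, 1920 and 704 lower. Of all genes, 17728 were above 0 with all mice and 17927 without ICH replicate 2. When the mice were scaled to equal medians, the median of all genes moved from 0.08 to -0.03, calls over all genes went from 2288 higher and 1282 lower to 1161 higher and 2053 lower, and of the 37 genes 32 were above 0 and 1 (Hpgds) was called. The median of the 37 genes was then 0.33.

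**Figure D2:**
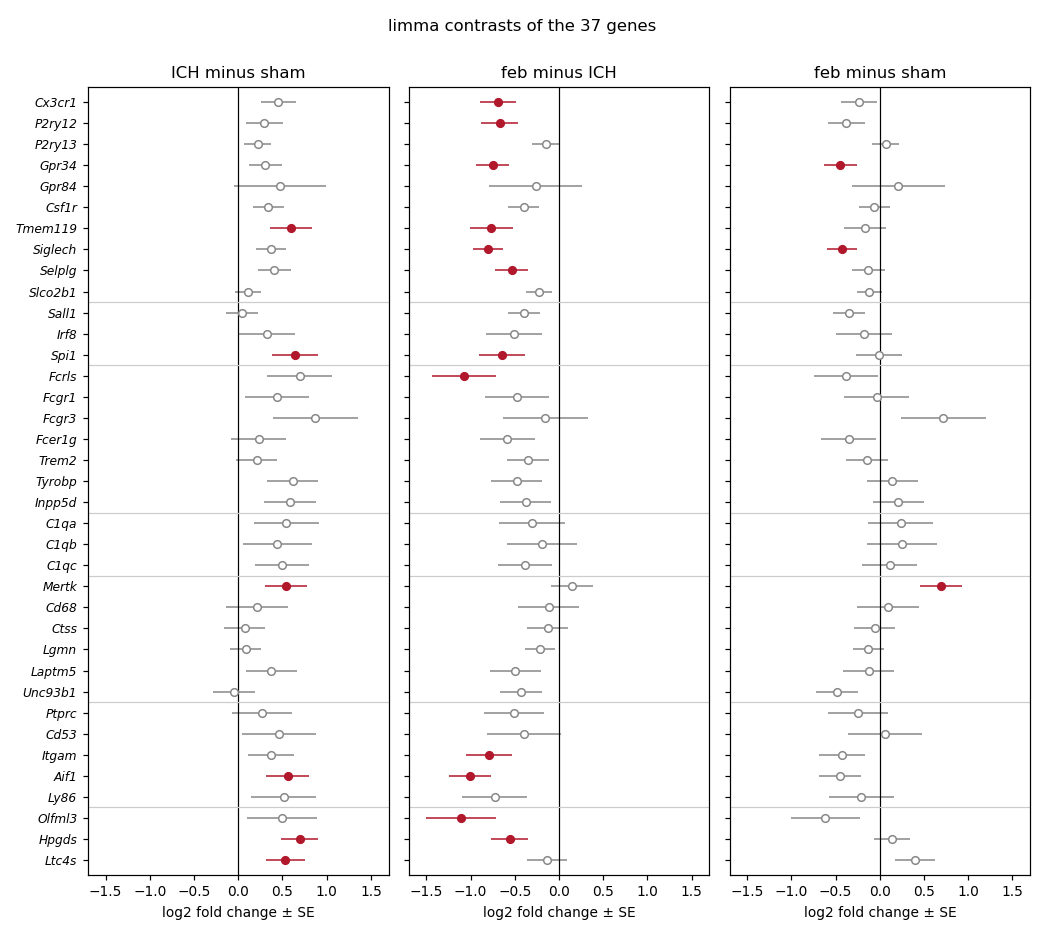
Log2 fold change of each of the 37 genes in limma (points, with bars of ± 1 SE) for ICH minus sham, feb minus ICH and feb minus sham, with filled red points for an unadjusted p-value under 0.05. The 6 red points between ICH and sham lie above 0, the 12 between feb and ICH lie below 0, and between feb and sham 1 lies above and 2 below.

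Between feb and ICH mice, 36 of the 37 genes were below 0 and 12 were called, all lower: Siglech, Aif1, Gpr34, Cx3cr1, P2ry12, Tmem119, Itgam, Fcrls, Selplg, Olfml3, Hpgds and Spi1. Among all genes tested, 52.2% were below 0 and 11.1% were called (6.16% as lower), against 32.4% of the 37 genes. The median log2 fold change was -0.48 in the 37 genes and -0.01 in all genes tested. The same 12 genes were the ones in which all feb mice were below all ICH mice, a pattern found in 10.1% of all genes tested. Aif1, Fcrls and Olfml3 were DEGs, where 2.43% of all genes were. No member passed an adjusted p of 0.05 in limma (2 of all genes did, 0.00689%). An exact two-sided permutation test gave 0.1 for each of the 12 genes, the smallest p that 3 mice against 3 allow. Groups of 3 without overlap always give this value, so it adds nothing to the lack of overlap. This comparison shares the ICH mice with the previous one, so values in ICH replicate 2 enter both.

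By role, of the 10 receptors and surface proteins, 6 were called lower and all 10 were below 0, with a median of -0.60. Of the 5 leukocyte surface and cytoskeletal genes, 2 were called (median -0.73), of the 3 secreted or lipid mediator genes 2 (median -0.56), and of the 3 transcription factors 1 (median -0.51). Of the 7 Fc receptors, Trem2 and adaptors, 1 was called (median -0.48). None of the 3 C1q chains (median -0.31) and none of the 6 phagocytosis and lysosome genes (median -0.17) were called at an unadjusted p under 0.05 in limma. Whether the roles differed from each other was not tested.

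Siglech, a sialic acid-binding lectin of microglia, had the lowest p-value of the 37 genes. Its RPKM was 2.28, 2.79 and 2.22 in ICH mice and 1.42, 1.51 and 1.14 in feb mice, against 1.63, 2.19 and 1.746 in sham mice. The feb mice were below every ICH mouse and also below every sham mouse. The log2 fold change between feb and ICH was -0.80 (SE 0.17, adjusted p = 0.234 in limma), and it stayed between -0.88 and -0.69 when any mouse was left out. Gpr34, a lysophosphatidylserine receptor, was at 1.72, 2.27 and 1.66 in ICH mice, 1.01, 1.29 and 0.933 in feb mice and 1.33, 1.68 and 1.48 in sham mice. The feb mice were again below every mouse of both other groups, while the sham and ICH mice overlapped, and the log2 fold change was -0.75 (SE 0.18, adjusted p = 0.267 in limma).

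Cx3cr1 was at 7.62, 10.1 and 6.14 in ICH mice, 5.88, 4.26 and 4.42 in feb mice and 5.21, 6.59 and 5.29 in sham mice. ICH replicate 3 and feb replicate 1 were close to each other, and the log2 fold change was -0.69 (SE 0.20, adjusted p = 0.309 in limma). P2ry12, which guides microglial processes toward ADP, was at 4.91, 4.26 and 4.62 in ICH mice, 2.89, 3.75 and 2.11 in feb mice and 3.05, 4.37 and 3.87 in sham mice. The ICH mice were close together here, and ICH replicate 2 was their lowest. The log2 fold change of P2ry12 was -0.67 (SE 0.21, adjusted p = 0.328 in limma). Its neighbor P2ry13, a related ADP receptor, was at -0.15 (SE 0.15, adjusted p = 0.732 in limma) and was not called.

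Tmem119 was at 2.17, 2.29 and 1.93 in feb mice, below the 2.77 of the lowest ICH mouse, with a log2 fold change of -0.77 (SE 0.24, adjusted p = 0.338 in limma), and -0.49 without ICH replicate 2. Selplg, a ligand of selectins, was at 5.05, 7.02 and 4.72 in ICH mice, 3.89, 3.81 and 3.61 in feb mice and 3.32, 5.13 and 4.15 in sham mice. The feb values were inside the sham range, and the log2 fold change against ICH was -0.54 (SE 0.19, adjusted p = 0.378 in limma). Of the receptors not called, Csf1r was the most abundant, at 16.0, 19.9 and 12.02 in ICH mice, 12.8, 11.6 and 11.2 in feb mice and 11.1, 14.3 and 11.9 in sham mice. Feb replicate 1 was above ICH replicate 3, and the log2 fold change was -0.40 (SE 0.18, adjusted p = 0.454 in limma), and -0.23 without ICH replicate 2. Gpr84, the lowest, was at 0.448, 1.13 and 0.222 in ICH mice and 0.609, 0.179 and 0.531 in feb mice, with the groups interleaved.

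Aif1 was at 4.67, 8.07 and 4.31 in ICH mice, 3.01, 2.74 and 2.29 in feb mice and 3.29, 4.47 and 3.37 in sham mice. The feb mice were below every mouse of both other groups, and the log2 fold change between feb and ICH was -1.01 (SE 0.24, adjusted p = 0.259 in limma). Itgam, the CD11b chain of complement receptor 3, was at 4.89, 7.26 and 3.74 in ICH mice and 3.55, 2.62 and 2.64 in feb mice, against 3.20, 5.12 and 3.73 in sham mice. Its log2 fold change was -0.79 (SE 0.26, adjusted p = 0.353 in limma). The pan-leukocyte gene Ptprc, the lowest of this role, was at 0.562, 0.849 and 0.277 in ICH mice and 0.377, 0.305 and 0.322 in feb mice, and the groups overlapped.

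Fcrls, an Fc receptor-like protein of mouse microglia, was at 7.24, 15.5 and 5.15 in ICH mice, 4.79, 3.72 and 3.32 in feb mice and 4.22, 6.59 and 4.82 in sham mice. ICH replicate 2 had more than 2 times the value of any other mouse. The log2 fold change was -1.08 (SE 0.36, adjusted p = 0.364 in limma) with it and -0.64 without it. Olfml3, a secreted olfactomedin protein, was at 3.88, 8.18 and 2.40 in ICH mice, 2.15, 2.35 and 1.38 in feb mice and 2.77, 3.50 and 2.74 in sham mice. The highest feb mouse and the lowest ICH mouse nearly coincided, and the log2 fold change of -1.11 (SE 0.39, adjusted p = 0.378 in limma) became -0.65 without ICH replicate 2. Hpgds was at 1.60, 1.41 and 1.52 in feb mice, between the sham and ICH means, and its log2 fold change was -0.56 (SE 0.21, adjusted p = 0.399 in limma). Spi1 was at 1.32, 0.985 and 1.24 in feb mice, close to the sham values, with -0.65 (SE 0.26, adjusted p = 0.417 in limma), and -0.37 without ICH replicate 2.

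Without ICH replicate 2, 7 of the 12 genes were still called (Aif1, Cx3cr1, Fcrls, Gpr34, P2ry12, Siglech and Tmem119), the median of the 37 genes was -0.21, 8 of the 37 were above 0 and none was a DEG in limma. Without feb replicate 3 the count was also 7, with Itgam in place of Fcrls and no DEG. Without ICH replicate 3, 24 genes were called, 5 of them DEGs, and the median was -0.71. Of all genes tested, 1789 were called lower with all mice and 1201 without ICH replicate 2. There were 1505 without feb replicate 3 and 1913 without ICH replicate 3. The number of all genes above 0 was 13869 with all mice and 13382 without ICH replicate 2. Hpgds and Spi1 were also not called without ICH replicate 1 or without feb replicate 2. Siglech, Aif1, Gpr34, Cx3cr1, P2ry12 and Tmem119 were called under all 19 alternatives tried, and no setting called a member higher in feb than in ICH.

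**Figure D3:**
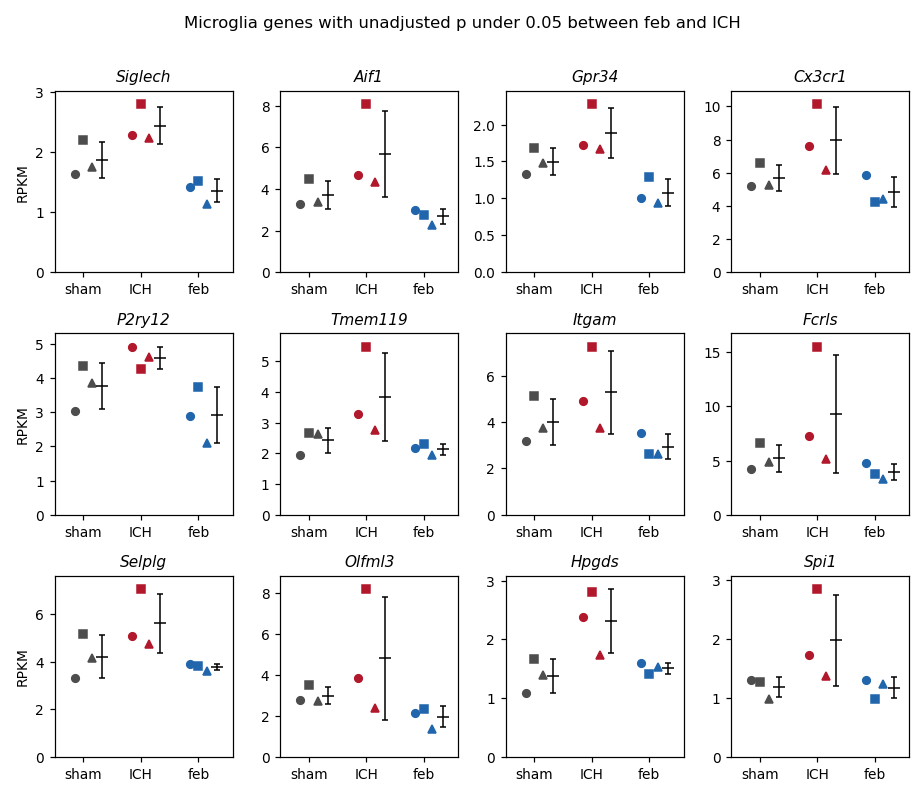
RPKM of the 12 genes with an unadjusted p-value under 0.05 between feb and ICH, ordered by p-value, in each sham, ICH and feb mouse (circle, square and triangle for replicates 1, 2 and 3), with the mean and bars of ± 1 SD (n = 3) beside them. In each panel the 3 feb mice are below the 3 ICH mice, and in 11 panels the ICH square, replicate 2, is the highest point.

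In the C1q chains, Fcgr3 and Mertk, feb replicate 2 was well below the other feb mice. C1qa was at 25.9, 11.2 and 20.8 in feb mice, 20.4, 37.4 and 15.02 in ICH mice and 14.3, 17.7 and 14.5 in sham mice. Feb replicates 1 and 3 were above every sham mouse and feb replicate 2 was below every sham mouse. C1qc, the least abundant chain, was at 7.67, 4.53 and 7.41 in feb mice, 8.84, 12.4 and 5.28 in ICH mice and 5.17, 6.66 and 5.93 in sham mice, with the same order. The mean of feb replicates 1 and 3 was 2.08 times the value of feb replicate 2 for C1qa, 1.78 times for C1qb and 1.66 times for C1qc.

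The log2 fold change between feb and ICH was -0.31 (SE 0.37, adjusted p = 0.781 in limma) for C1qa, -0.19 (SE 0.39) for C1qb and -0.38 (SE 0.31) for C1qc. For C1qa and C1qb the direction depended on ICH replicate 2, without which they were at 0.06 and 0.19, and on feb replicate 2, without which they were at 0.04 and 0.08. Fcgr3 was at 9.88, 3.08 and 9.29 in feb mice, so that replicates 1 and 3 averaged 3.11 times replicate 2. Its log2 fold change was -0.16 (SE 0.48, adjusted p = 0.926 in limma), and it was 0.16 without ICH replicate 2 and 0.38 without feb replicate 2. Mertk was at 9.81, 6.80 and 12.5 in feb mice, and it was the only member above 0 between feb and ICH, at 0.15 (SE 0.24, adjusted p = 0.839 in limma). Without feb replicate 3 it was at -0.05.

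In 21 of the 37 genes feb replicate 2 was the lowest of its group, and in 7, P2ry12, Gpr34, Tmem119, Siglech, Sall1, Unc93b1 and Olfml3, it was the highest. Of these 7, Sall1, Unc93b1 and Olfml3 are not among the 10 receptors. The receptors and the C1q chains were also compared within each mouse. The measure was the mean log2 level of the 10 receptors minus that of the 3 C1q chains, relative to the mean of the sham mice. This difference was -0.01, -0.08 and 0.10 in sham mice, -0.18, -0.48 and 0.26 in ICH mice and -0.64, 0.18 and -0.64 in feb mice. Feb replicates 1 and 3 were the lowest of the 9 mice and feb replicate 2 was above the sham mice, so the feb mice lay on both sides of the sham mice. The C1q chains alone were at 0.57, -0.37 and 0.40 in feb replicates 1, 2 and 3, relative to sham. The receptors alone were at -0.07, -0.20 and -0.24, with feb replicate 2 in the middle. The difference among the feb mice was thus mostly that of the C1q chains. Setting the receptors against the C1q chains was chosen after the values were seen and was not tested. Gfap was also lowest in feb replicate 2, at 160, 54.5 and 137 in feb mice, and its part in the pattern was not tested.

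**Figure D4:**
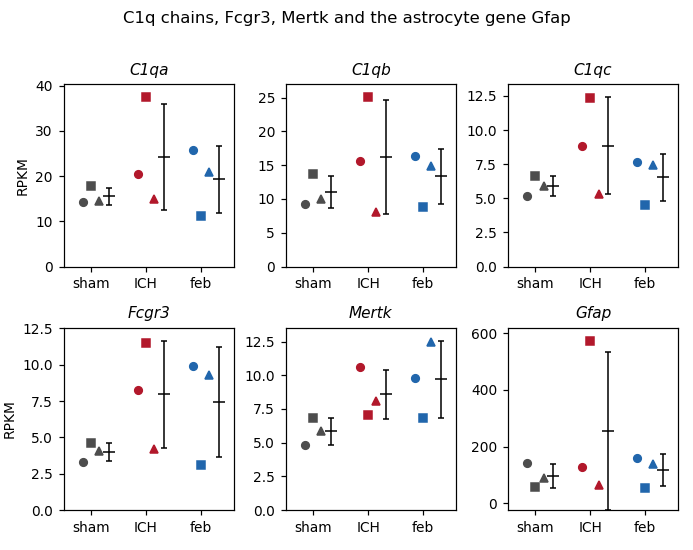
RPKM of C1qa, C1qb, C1qc, Fcgr3, Mertk and the astrocyte gene Gfap in each sham, ICH and feb mouse (circle, square and triangle for replicates 1, 2 and 3), with the mean and bars of ± 1 SD (n = 3), where the SD of Gfap in ICH exceeds its mean. In all 6 panels feb replicate 2 (square) is the lowest feb mouse, and in 5 of them, all but Mertk, ICH replicate 2 is the highest mouse.

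None of the remaining genes for phagocytosis and the lysosome was called between feb and ICH. Ctss, the most abundant member, was at 33.1, 45.6 and 24.6 in ICH mice, 36.0, 23.7 and 33.1 in feb mice and 28.2, 36.4 and 31.1 in sham mice. The groups were interleaved, and the log2 fold change was -0.13 (SE 0.23), or 0.09 without ICH replicate 2. Laptm5, a lysosomal membrane protein of hematopoietic cells and the least abundant of the role, was at 3.47, 5.20 and 2.33 in ICH mice and 2.95, 2.20 and 2.24 in feb mice, a log2 difference of -0.50 (SE 0.29, adjusted p = 0.547 in limma). Unc93b1 was at 4.57, 4.79 and 2.73 in ICH mice, 2.42, 3.85 and 2.55 in feb mice and 4.004, 4.16 and 4.03 in sham mice, and ICH replicate 3 was with feb replicates 1 and 3. Its log2 fold change was -0.43 (SE 0.24, adjusted p = 0.524 in limma).

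Among the genes for Fc receptors and their partners that were not called, Fcer1g, the common signaling chain, was at -0.59 (SE 0.31), Tyrobp, the adaptor of Trem2, at -0.48 (SE 0.29), and the lipid receptor Trem2 at -0.35 (SE 0.24). Fcgr1, the high-affinity immunoglobulin receptor and the least abundant of the role, was at 1.10, 2.38 and 0.900 in ICH mice and 1.30, 0.826 and 0.754 in feb mice, with overlap. Of the transcription factors, Sall1 was at 5.11, 5.02 and 3.79 in ICH mice, 3.93, 4.05 and 2.63 in feb mice and 4.64, 4.41 and 4.32 in sham mice. The feb mice were below all sham mice but not below ICH replicate 3, and the log2 fold change against ICH was -0.40 (SE 0.18, adjusted p = 0.463 in limma). Irf8 was at 0.828, 1.19 and 0.482 in ICH mice and 0.626, 0.511 and 0.449 in feb mice, a difference of -0.51 (SE 0.32) on the log2 scale.

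Between feb and sham mice, 24 of the 37 genes were below 0 and 13 above, against 41.2% and 58.7% of all genes. The calls were 3, with Siglech and Gpr34 lower and Mertk higher, where 8.54% of all genes were called (2.9% as lower and 5.63% as higher), close to the 8.11% of the 37 genes. The median was -0.12 in the 37 genes and 0.05 in all genes tested. No member was a DEG (2.2% of all genes were) or passed an adjusted p of 0.05 in limma (1 of all genes did, 0.00345%). All feb mice were below all sham mice in 6 genes, Gpr34, Siglech, Sall1, Unc93b1, Aif1 and Olfml3, where 4.9% of all genes had this pattern.

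The log2 fold change between feb and sham was -0.42 (SE 0.17, adjusted p = 0.580 in limma) for Siglech, -0.45 (SE 0.18, adjusted p = 0.582) for Gpr34 and 0.69 (SE 0.24, adjusted p = 0.565) for Mertk. In Mertk feb replicates 1 and 3 were above every sham mouse, and feb replicate 2, at 6.80, was just below the highest sham mouse, at 6.82. The largest difference was in Fcgr3, at 0.72 (SE 0.48, adjusted p = 0.682 in limma), which was not called. The largest in the other direction was in Olfml3, at -0.62 (SE 0.39, adjusted p = 0.669 in limma), followed by Unc93b1 at -0.49 (SE 0.24) and Aif1 at -0.45 (SE 0.24). Tmem119, Spi1 and Selplg, which were called lower between feb and ICH, were close to the sham level, at -0.17 (SE 0.24), -0.01 (SE 0.26) and -0.13 (SE 0.19), the latter 2 with a sign that changed when single mice were left out.

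The calls between feb and sham were lost or gained with single mice. Without feb replicate 3 the count was 0 (in all 9 mice it was 3), without feb replicate 1 it was 1, and without feb replicate 2 it was 7, 1 of them a DEG. Without sham replicates 1, 2 and 3 it was 3, 2 and 1, and without ICH replicates 1, 2 and 3 it was 2, 5 and 4. The calls over all genes tested moved too, from 1635 higher and 843 lower with all mice. They were 1722 and 554, 2559 and 1522, and 708 and 437 without feb replicates 1, 2 and 3. Leaving out sham replicates 1, 2 and 3 gave 1049, 2587 and 985 higher and 490, 1246 and 476 lower. The median of the 37 genes was -0.18, -0.05 and -0.06 without feb replicates 1, 2 and 3, and 0.02 without sham replicate 2. Scaling to equal medians moved the median of all genes from 0.05 to -0.06 and turned their calls from 1635 higher and 843 lower to 1002 higher and 1500 lower, and with it 4 of the 37 genes were called, Unc93b1 being added as lower. The median of the 37 genes was then -0.23, with 9 of them above 0, and it was -0.18 after quantile normalization.

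A further list of 20 microglial genes outside the 37 was read in the same way. In ICH against sham all 20 were above 0 (median 0.41) and 3 were called higher, Blnk, Dock8 and Arhgdib, of which Dock8 and Arhgdib were no longer called under 9 and 11 of the 19 alternatives. In feb against ICH, 19 were below 0 (median -0.48) and 5 were called lower, among them Lpcat2, Blnk, Entpd1 and Dock8. Blnk, an adaptor in immune receptor signaling, was at 0.328, 0.377 and 0.267 in sham mice, 0.682, 0.679 and 0.644 in ICH mice and 0.259, 0.450 and 0.217 in feb mice. The ICH mice were close together and above all others, ICH replicate 2 included, and the log2 fold changes were 0.87 (SE 0.25, adjusted p = 0.345 in limma) against sham and -0.95 (SE 0.25, adjusted p = 0.291) for feb against ICH. In feb against sham 13 were below 0 (median -0.03) and 0 were called at an unadjusted p under 0.05 or after adjustment in limma. Of all genes tested, 12.3% were called in ICH against sham (7.88% as higher), and 61.1% were above 0. In feb against ICH 11.1% were called (6.16% as lower), and 52.2% were below 0.

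Of 15 genes for ligands of microglial receptors and for TGF-beta signaling, 14 passed the filter. In ICH against sham 12 were above 0 (median 0.45), and the TGF-beta receptor Tgfbr1 and the transcription factor Mef2c were called higher. Tgfbr1 was at 1.76, 1.85 and 2.03 in sham mice, 2.99, 3.22 and 2.37 in ICH mice and 1.94, 1.77 and 1.85 in feb mice. The ICH mice were above all others, with log2 fold changes of 0.57 (SE 0.14, adjusted p = 0.334 in limma) against sham and -0.59 (SE 0.14, adjusted p = 0.260) for feb against ICH. Mef2c was at 10.2, 10.2 and 7.07 in sham mice, 17.2, 17.6 and 14.5 in ICH mice and 6.17, 11.97 and 6.59 in feb mice. It is also abundant in neurons, so its level in brain is not a measure of microglia alone. These 2 were the genes called lower in feb against ICH, where 13 of 14 were below 0 (median -0.37). In feb against sham, Nrros, which holds latent TGF-beta on microglia, was called higher, at 0.54 (SE 0.23, adjusted p = 0.583 in limma), and was no longer called under 12 of 18 alternatives. Of all genes tested, 7.88% were called higher in ICH against sham, 6.16% lower in feb against ICH and 5.63% higher in feb against sham.

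Of 20 genes that microglia raise when activated in disease, 19 were tested. Their median was 0.01 in ICH against sham, with 0 called higher and 1 lower, and -0.32 in feb against ICH, with 2 called lower and 1 higher at an unadjusted p under 0.05 in limma. In feb against sham it was -0.26, with 1 called lower. Of all genes tested, 12.3%, 11.1% and 8.54% were called in these 3 comparisons, higher or lower. Apoe, the most abundant and mainly an astrocyte gene in brain, was at 1071, 853 and 1014 in sham mice, 861, 589 and 819 in ICH mice and 1025, 1026 and 1010 in feb mice. It was called lower in ICH against sham, at -0.39, and higher in feb against ICH, at 0.45, and was called in neither without ICH replicate 2 (-0.22 and 0.28). Cd9, a tetraspanin, was at 5.46, 14.8 and 5.83 in ICH mice against 4.01 to 5.36 in the sham and feb mice, so ICH replicate 2 was apart in this gene too. In mean log2 level relative to sham, this list was at 0.77 in ICH replicate 2 and at -0.02 and -0.20 in ICH replicates 1 and 3.

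**Figure D5:**
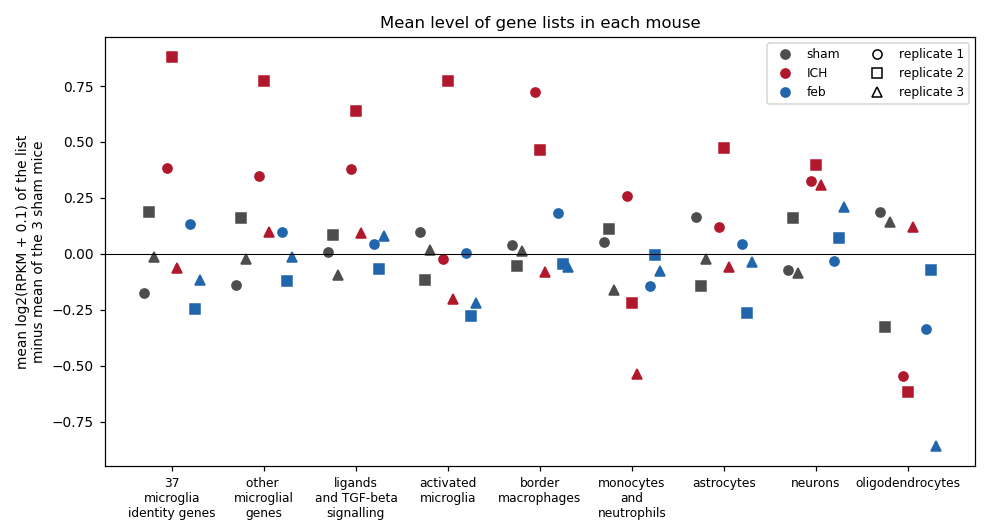
Mean log2(RPKM + 0.1) of each gene list in each mouse minus the mean of the 3 sham mice, for the 37 genes, 3 other lists of microglial genes and 5 lists of other cells (gray sham, red ICH, blue feb, with circle, square and triangle for replicates 1, 2 and 3). ICH replicate 2 is at 0.88 for the 37 genes, against 0.38 and -0.06 in ICH replicates 1 and 3, and it is also the highest mouse in 3 further microglial lists and in the astrocyte and neuron lists.

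Markers of other cells were read beside these results. Of 12 genes of the macrophages at the borders of the brain, 10 were tested. All 10 were above 0 in ICH against sham and below 0 in feb against ICH. At an unadjusted p under 0.05 in limma, 1 was called in ICH against sham and 0 in feb against ICH. The summed RPKM of all 12 was 5.24 to 5.92 in sham, 5.05 to 10.5 in ICH and 4.98 to 6.95 in feb. Their mean log2 level relative to sham was highest in ICH replicate 1, at 0.73, against 0.46 in ICH replicate 2. Of 12 genes of monocytes and neutrophils only 4 passed the filter, and the summed RPKM of all 12 was 1.204 to 2.63 in sham, 0.837 to 2.39 in ICH and 1.47 to 2.26 in feb. Ccr2 and Ly6c2, which define inflammatory monocytes, were at or below an RPKM of 0.15 in every mouse. Of 10 lymphocyte genes 2 were tested, and the summed RPKM of all 10 was 1.21 to 3.68 in sham, 2.56 to 6.22 in ICH and 2.15 to 2.82 in feb.

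The hemoglobin and other red blood cell genes summed to 32.3 to 40.6 in sham, 26.7 to 124 in ICH and 17.1 to 21.6 in feb. All 8 choroid plexus genes were lower in feb, with summed RPKM of 365 to 1035 in sham, 458 to 967 in ICH and 30.6 to 88.4 in feb. The 7 neuronal genes summed to 443 to 486 in sham, 511 to 547 in ICH and 455 to 494 in feb, the 7 astrocyte genes to 488 to 592, 524 to 1016 and 447 to 601, and the 6 oligodendrocyte genes to 627 to 919, 506 to 877 and 496 to 791. The part of these cells, and of the tissue taken, in the differences of the 37 genes was not tested.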

How the data were processed

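Brain RNA of 9 mice (3 sham, 3 ICH and 3 feb, grouped by the sample labels) was depleted of rRNA, tagged with UMIs and sequenced by the authors. Per the labels and methods, reads were trimmed with Trimmomatic (version 0.36), collapsed by UMI, aligned to GRCm38 and counted with featureCounts (Subread version 1.5.1). The authors deposited RPKM values, 1 column per mouse, and tested counts with edgeR (version 3.12.1). Here the deposited RPKM were tested with limma, and voom on recovered reads was an alternative. The annotation release and strand setting are not given in the sources used here. Whole reads were recovered from the RPKM values (100% of values under 50 reads were whole within 0.01). Within a group, mice differed by a chi-square per gene of 13.9 to 48.5, and each was kept as its own sample.

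Groups were compared with limma (version 3.58.1, R 4.3.3; lmFit and a trended eBayes) on log2(RPKM + 0.1). The 29025 of 38621 genes that reached an RPKM of 0.1 in 3 or more mice were tested, with all mice in 1 fit and no block. Single genes were also tested by exact two-sided permutation, which cannot go below 0.1. The 37 genes, the other lists and the tests were chosen with earlier results of these data known, so no p-value was adjusted over a list and no set test was run. Values per mouse are printed for members called or without overlap between groups and for the most and least abundant member of each role. C1q and Fcgr3 were singled out after their values were seen. Motifs were searched in RefSeq promoter windows, and the summaries used Python 3.11.15 with numpy 2.4.6 and pandas 2.3.3. The alternatives were to leave out each mouse in turn, to use voom on the recovered reads (at least 10 reads) and to add the replicate number as a block. Further ones were quantile normalization, equal medians, an untrended eBayes, fitting 2 groups only, a pseudocount of 1 or of 0.01, and a filter at an RPKM of 1 or none.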

Additional observations from a re-analysis of the deposited data

How the results depend on the processing

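Of the gene comparisons given above, 63 were recomputed under up to 19 alternatives. Of the 1193 values, 1013 kept their direction and their side of the threshold, and 123 kept the direction but were no longer called. A further 33 became called and 24 reversed. Leaving out a mouse of the group not compared cannot move a log2 fold change, so the direction was fixed in advance in those alternatives. With 1 mouse left out, those that reversed between feb and ICH ranged from -0.56 to 0.38 for Fcgr3, from -0.60 to 0.058 for C1qa, from -0.61 to 0.19 for C1qb, from -0.35 to 0.094 for Ctss and from -0.053 to 0.38 for Mertk. Between ICH and sham they ranged from -0.15 to 0.29 for Ctss, -0.11 to 0.23 for Lgmn, -0.030 to 0.18 for Sall1 and -0.20 to 0.20 for Unc93b1, and between feb and sham from -0.13 to 0.10 for Spi1 and -0.28 to 0.022 for Selplg. Equal medians also reversed Ctss (-0.036), Lgmn (-0.024) and Sall1 (-0.063) between ICH and sham, and Sall1 was at -0.029 with quantile normalization and -0.022 with voom on the recovered reads. The count of genes called between ICH and sham, 6, was 1 with equal medians, 1 with quantile normalization, 3 in a fit of 2 groups only and 1 to 17 with 1 mouse left out, and its DEGs, 0, were 0 to 2. Between feb and ICH the 12 calls ranged from 7 to 24 with 1 mouse left out, and the 3 DEGs were 0 with a pseudocount of 1 and 0 to 5 with 1 mouse left out. Between feb and sham the 3 calls were 5 in a fit of 2 groups only, 5 with voom on the recovered reads and 0 to 7 with 1 mouse left out, and its DEGs, 0, were 0 to 1. The calls over all genes tested also moved with the mouse left out, as given above. Deviations of same-numbered mice from their group means correlated at -0.13 to 0.02 over 9 pairs. Those of differently numbered mice correlated at -0.12 to 0.17 over 18 pairs. As these ranges overlap, they do not settle whether same-numbered mice were handled together. With the replicate number as a block, 14 genes were called between feb and ICH, 5 between ICH and sham and 6 between feb and sham. The median log2 fold change of the member genes, 0.44 between ICH and sham, was 0.17 to 0.63 with 1 mouse left out. Between feb and ICH the median of -0.48 became -0.71 to -0.21. Between feb and sham the median of -0.12 became -0.18 to 0.02, so its sign was not stable. Voom on recovered reads and the other scalings kept all 12 calls between feb and ICH. The cause of the other changes was not tested. At 7 to 46 reads per mouse, Gpr84 is the member whose values are most limited by depth.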
